A study of Mus musculus with 24 samples.

Results

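The transcription factors that direct blood stem and progenitor cells towards the myeloid lineages were followed by the read counts of 10 genes, Cebpa, Cebpb, Cebpd, Cebpe, Spi1, Gfi1, Gfi1b, Klf4, Gata2 and Runx1. They were taken by symbol from the 55376 genes of the count tables, whatever their values. All 10 were present. Libraries came from hematopoietic stem cells (HSC) and from the myeloid-biased multipotent progenitors MPP3, sorted from bone marrow of untreated male mice. The 24 libraries form 6 groups, with HSC of 4 Y-WT and 4 Y-TTPΔARE young adults, HSC of 5 M-WT and 3 M-TTPΔARE middle-aged mice, and MPP3 of 4 Y-WT and 4 Y-TTPΔARE young adults. TTPΔARE animals (TTPdeltaARE in the labels) are homozygous for a germline deletion of an AU-rich element of Zfp36, the gene of the mRNA-decay factor tristetraprolin (TTP), and WT animals are their littermates. The allele is carried by every cell of the animal, so that a difference in a sorted cell need not arise within that cell. HSC were sorted as CD34-Flk2-CD150+ cells of the Lineage-Sca1+cKit+ (LSK) population. Strain and number of animals per library were not given in the sources used here, and p-values measure the spread between libraries, which may be technical in part.

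SPI1 (PU.1) and the C/EBP factors bind enhancers of receptor and granule genes and switch on the granulocyte and monocyte programme. C/EBPα acts at the entry to that programme, C/EBPε late in granulocytes, and KLF4 in monocytes. GFI1 and GFI1B are related zinc-finger repressors that bind the core AATC and recruit LSD1 and CoREST, with GFI1 used mainly in granulocytes and GFI1B in erythroid cells and megakaryocytes. GATA2 and RUNX1 act in stem cells and early progenitors, and GATA2 and PU.1 are known to counteract each other.

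Promoter windows from RefSeq (GRCm38.p6, 250 bases before to 50 bases after a start site) were matched by symbol for 7 members, with 10 windows in all. Cebpd, Cebpe and Spi1 had no entry. Each window was searched on both strands for 6 strings. GFI1 and GFI1B were represented by AATC and PU.1 by GAGGAA. The string for C/EBP was TTGCNNAA, and RUNX factors were represented by TGTGGT. For GATA factors AGATAA was used, and for KLF factors GGGTGTGG. A match describes letters in the window and not a bound site. The windows of Gfi1 and Gfi1b are shown because these related genes had opposite levels in the 2 cell types, and the window of the upstream Runx1 start because its own factor's core occurs there. Capitals mark AATC or its complement GATT in the first pair, and TGTGGT or its complement ACCACA in the third. The windows are Gfi1b at chr2:28621933-28622232, Gfi1 at chr5:107725756-107726055 and Runx1 at chr16:92826025-92826324, all on the minus strand and written 5′ to 3′.
Gfi1b: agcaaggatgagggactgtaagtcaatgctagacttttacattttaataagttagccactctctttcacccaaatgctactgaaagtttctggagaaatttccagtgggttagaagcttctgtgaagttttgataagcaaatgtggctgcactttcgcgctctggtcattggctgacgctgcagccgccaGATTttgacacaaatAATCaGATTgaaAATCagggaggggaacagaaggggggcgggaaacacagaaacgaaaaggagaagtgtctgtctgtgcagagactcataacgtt
Gfi1: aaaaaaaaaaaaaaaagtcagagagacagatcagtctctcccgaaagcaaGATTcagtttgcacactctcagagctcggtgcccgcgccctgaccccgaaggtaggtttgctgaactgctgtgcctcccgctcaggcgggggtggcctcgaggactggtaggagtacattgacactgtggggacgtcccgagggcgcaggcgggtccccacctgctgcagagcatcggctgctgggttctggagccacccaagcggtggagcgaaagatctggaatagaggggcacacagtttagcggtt
Runx1: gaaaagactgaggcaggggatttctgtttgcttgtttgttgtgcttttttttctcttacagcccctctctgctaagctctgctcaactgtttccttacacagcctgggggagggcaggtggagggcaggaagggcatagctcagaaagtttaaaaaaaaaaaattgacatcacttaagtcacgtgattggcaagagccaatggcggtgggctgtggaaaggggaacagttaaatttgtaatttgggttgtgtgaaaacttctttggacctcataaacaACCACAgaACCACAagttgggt
The Gfi1b window held 4 AATC cores, close together before the start site, as did 10.1% of 32851 mouse windows with 4 or more. The Gfi1 window shown held 1, and 73.1% of all windows held at least 1. It also held 1 TTGCNNAA, present in 10.8% of windows. The other Gfi1 window, at chr5:107724294-107724593, held none of the 6 strings. The Runx1 window held 2 TGTGGT, a number reached by 1.81% of windows, and 2 AATC, reached by 44.5%. No match overlapped a match of another string in the 3 windows shown. The windows of Cebpa, Cebpb and Klf4 held none of the 6 strings.

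Sums of counts lay between 24261371 and 39934554 per library. Zfp36, the targeted gene, was higher in TTPΔARE libraries, with 85.4 to 105 CPM against 32.5 to 69.2 in young HSC, 95.03 to 106 against 41.6 to 60.4 in middle-aged HSC and 81.7 to 124 against 20.5 to 38.4 in MPP3 (CPM are counts scaled to a common library total, here TMM-scaled over the 24 libraries). The ranges did not overlap in any of the 3 sets. In edgeR's quasi-likelihood test, explained below, Zfp36 passed in middle-aged HSC (adjusted p = 0.0020) and MPP3 (adjusted p = 0.000646). In young HSC it did not pass (log2 fold change 0.96, SE 0.21, adjusted p = 0.238). Summed levels of 10 HSC markers were 1767 to 2942 CPM in HSC and 969 to 1393 in MPP3, and those of 10 MPP3 and granulocyte-monocyte progenitor markers 314 to 554 and 1963 to 4563, as the labels say. Libraries of young HSC, middle-aged HSC and MPP3 carry separate runs of numbers in their titles, so that age or cell type and the handling of these sets cannot be told apart. Olfactory and vomeronasal receptors, genes of sensory neurons, summed to 17.9 to 945 CPM, widest in Y-WT HSC (57.8 to 945).

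The members covered a wide range of levels. Per kilobase of exon, Gata2 was the highest of the 10 in each HSC group (69.5 ± 1.74 RPKM in Y-WT, SD, n = 4), followed by Gfi1b (42.0 ± 6.45). Spi1 (25.3 ± 0.940) and Cebpb (21.1 ± 4.11) came next and did not differ beyond their spread, and neither did Runx1 (10.2 ± 0.675) and Gfi1 (8.92 ± 2.78). Cebpd stood at 3.74 ± 0.592 RPKM, while Cebpa, Cebpe and Klf4 each lay under 0.4 and overlapped. In Y-WT MPP3 the order began with Spi1 (44.9 ± 4.31 RPKM) and Gata2 (39.2 ± 4.01), which lay about 1 SD apart, and Gfi1b (17.5 ± 4.32), Gfi1 (17.0 ± 1.95) and Cebpb (15.2 ± 1.79) could not be ordered. Klf4 was last (0.232 ± 0.165).

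**Figure D1:**
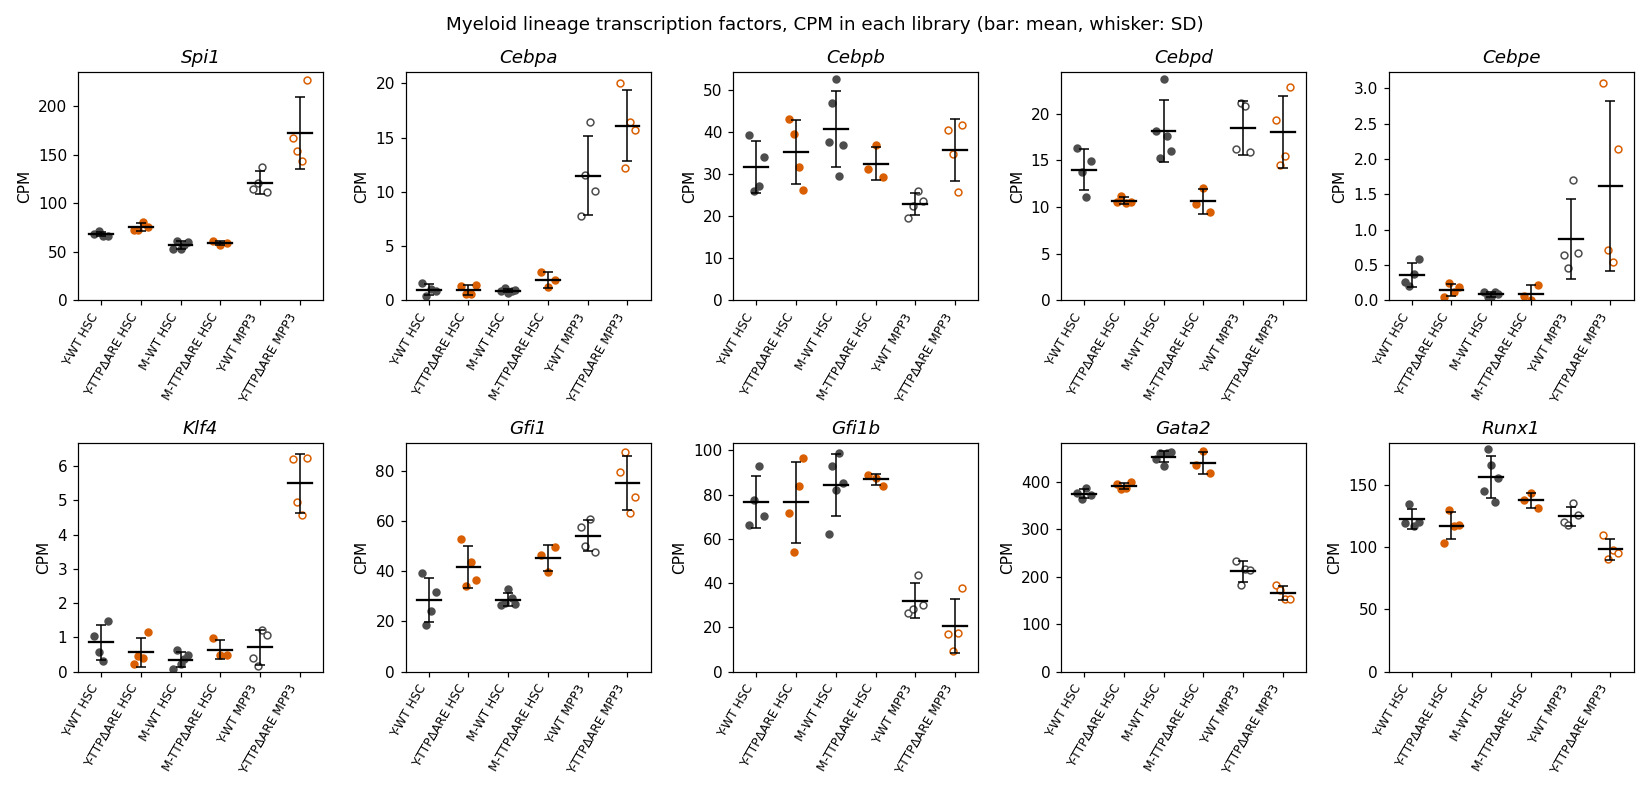
Levels of the 10 factors in CPM (linear axes from 0) in each library of the 6 groups; filled points are HSC, open points MPP3, grey WT and orange TTPΔARE, with mean and SD. Klf4 exceeded 4.5 CPM in the 4 Y-TTPΔARE MPP3 libraries and stayed under 1.5 in the other 20, while Gata2 and Gfi1b were lower in MPP3 than in HSC.

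More members were called between MPP3 and HSC than in any other comparison. In Y-WT mice Cebpa, Spi1 and Gfi1 were higher and Gfi1b and Gata2 lower in MPP3, that is 5 of 10 members tested were called, where 22.2% of all 22816 genes tested were (14.5% higher and 7.69% lower). Calling a gene took an adjusted p under 0.05 in edgeR's quasi-likelihood test together with a fold of more than 1.2 and a mean logCPM of more than 1.5. In Y-TTPΔARE mice the same 5 were called in the same direction and Cebpd and Klf4 were higher as well, 7 of 10 against 16.3% of all genes (9.07% higher and 7.22% lower). The groups did not overlap for 7 of 9 members over the logCPM limit in TTPΔARE, where 37.5% of such genes did not. The median log2 fold change of the members was 0.17 in WT and 0.70 in TTPΔARE, with -0.16 and -0.05 over all genes.

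Cebpa, which opens the granulocyte-monocyte programme, had the largest difference. Its level was 1.57, 0.409, 1.04 and 0.886 CPM in the 4 Y-WT HSC libraries and 7.79, 11.6, 16.4 and 10.1 CPM in the 4 of Y-WT MPP3. All MPP3 libraries stood above all HSC libraries. The log2 fold change was 3.48 (SE 0.40, adjusted p = 0.00034) in WT and 3.94 (SE 0.35, adjusted p = 5.4e-05) in TTPΔARE. In bulk libraries, a larger share of cells that use a gene and more RNA of it per cell cannot be told apart.

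Spi1, encoding PU.1, was expressed in both cell types and was higher in MPP3. It gave 68.7, 71.7, 66.3 and 66.4 CPM in Y-WT HSC and 115, 121, 137 and 111 CPM in Y-WT MPP3. Again the groups did not overlap, as held for 6 of the 8 members over the logCPM limit and for 46.1% of all genes over it. The log2 fold change was 0.79 (SE 0.09, adjusted p = 0.000285) in WT and 1.09 (SE 0.11, adjusted p = 0.00012) in TTPΔARE.

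The repressors differed in opposite directions. Gfi1 was at 39.1, 18.7, 24.3 and 31.7 CPM in Y-WT HSC and at 57.7, 49.96, 60.8 and 47.7 CPM in Y-WT MPP3 (log2 fold change 0.87, SE 0.22, adjusted p = 0.0175). Gfi1b was at 66.5, 77.4, 93.2 and 70.2 CPM in Y-WT HSC and at 26.3, 28.1, 43.7 and 30.1 CPM in Y-WT MPP3 (log2 fold change -1.30, SE 0.16, adjusted p = 0.000446). Neither pair of groups overlapped. In TTPΔARE the differences were 0.75 for Gfi1 (SE 0.19, adjusted p = 0.0217) and -2.05 for Gfi1b (SE 0.32, adjusted p = 0.00137). The Gfi1 call in TTPΔARE held in 3 of 8 fits with 1 library left out, and was lost without HSC replicate 2, 3 or 4 or MPP3 replicate 1 or 2 (adjusted p = 0.0546 to 0.0799). In WT it was lost without HSC replicate 3 (adjusted p = 0.0511). Within a library, Gfi1 had fewer counts than Gfi1b in all HSC (ratio 0.241 to 0.736) and more in all MPP3, with ratios of 1.39 to 2.20 in Y-WT and 1.83 to 9.21 in Y-TTPΔARE. These ratios do not depend on the scaling of libraries, are not corrected for gene length and were chosen after the values were seen, so no test is given.

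Gata2, a factor of stem cells and early progenitors, fell from 377, 365, 387 and 372 CPM in Y-WT HSC to 233, 182, 215 and 215 CPM in Y-WT MPP3. The log2 fold change was -0.87 (SE 0.09, adjusted p = 0.000176), and -1.33 in TTPΔARE (SE 0.13, adjusted p = 9.97e-05). The counts of Spi1 over those of Gata2 were 0.171 to 0.197 in Y-WT HSC, 0.183 to 0.209 in Y-TTPΔARE HSC, 0.491 to 0.664 in Y-WT MPP3 and 0.890 to 1.49 in Y-TTPΔARE MPP3. The genotypes overlapped in HSC and stood apart in MPP3. Runx1 had nearly the same level in both cell types of WT (log2 fold change -0.01, SE 0.08) and its change in TTPΔARE did not pass (-0.34, SE 0.12, adjusted p = 0.0791).

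**Figure D2:**
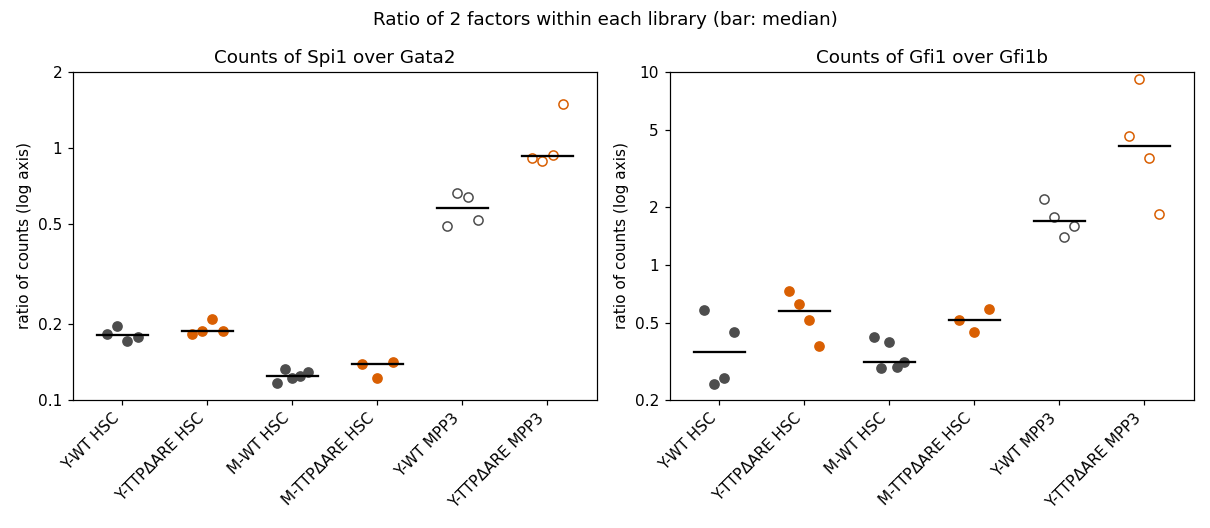
Ratio of the counts of Spi1 over Gata2 (left) and of Gfi1 over Gfi1b (right) in each library, on log axes, by group, with the median as a bar. Both ratios were higher in every MPP3 library than in any HSC library, and the Y-TTPΔARE MPP3 libraries lay between 0.890 and 1.49 for Spi1 over Gata2.

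The other C/EBP genes differed less between the cell types. Cebpb, an inducible factor of emergency granulocyte production, was at 19.6 to 26.1 CPM in Y-WT MPP3 and at 26.1 to 39.3 CPM in Y-WT HSC, with a log2 fold change of -0.51 (SE 0.17) that did not pass (adjusted p = 0.0509). It was called in DESeq2, in the likelihood ratio test, with RLE factors, without a filter and without HSC replicate 2 or MPP3 replicate 3 (adjusted p = 0.00439 to 0.0388). Cebpd was higher in MPP3 of TTPΔARE (0.64, SE 0.14, adjusted p = 0.0095) and did not pass in WT (0.36, SE 0.16, adjusted p = 0.154). Its call in TTPΔARE was lost without HSC replicate 1 (adjusted p = 0.0546), MPP3 replicate 1 (adjusted p = 0.0664) or the filter (adjusted p = 0.0648), and in WT it passed without HSC replicate 1 (adjusted p = 0.0381). Klf4 was higher in MPP3 of TTPΔARE by 3.20 on the log2 scale (SE 0.47, adjusted p = 0.000948), and without any 1 of the 4 MPP3 libraries its call was lost through the logCPM limit alone. Cebpe had 0 to 20 counts in HSC libraries and 15 to 96 in MPP3. Its log2 fold change in TTPΔARE was 3.31 (SE 0.78, adjusted p = 0.0145) at a level under the logCPM limit, so it was not called.

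Genes of the pathways around these factors were counted from lists chosen with earlier results of these data known, and are set against all genes tested, of which 14.5% were called higher and 7.69% lower in WT and 9.07% and 7.22% in TTPΔARE. Of 25 myeloid effector genes with C/EBP or PU.1 sites (granule proteins, growth factor and Fc receptors), 11 were higher in Y-WT MPP3 and none lower, against 17 of 24 and none in TTPΔARE. Their median log2 fold changes were 0.62 and 2.05. Of 18 erythroid and megakaryocyte genes, none was higher and 8 were lower in WT, and 1 was higher and 10 lower in TTPΔARE. Of stem cell factors that bind with GATA2 and RUNX1, 3 of 14 were higher and 6 lower in WT, and 1 of 13 higher and 6 lower in TTPΔARE. Among 11 corepressors of GFI1 and GFI1B, 3 were higher and 1 lower in WT, and none was higher and 2 were lower in TTPΔARE. Of 28 other transcription factors of the myeloid programme, 10 were higher and 6 lower in WT, and 10 higher and 2 lower in TTPΔARE. Of 19 immediate early genes tested, 2 were higher and 4 lower in WT, and 3 higher and 2 lower in TTPΔARE.

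The genotypes were then compared within each cell type. MPP3 of TTPΔARE mice had more Klf4, a factor of monocytes. Klf4 was the only 1 of 10 members called, where 1.71% of 19023 genes tested were called (1.58% higher), and 7 members had an unadjusted p under 0.05, where 12.1% of all genes did. The Y-WT libraries held 11, 6, 36 and 41 counts of Klf4 and the Y-TTPΔARE libraries 194, 166, 127 and 146, which are 0.388, 0.173, 1.21 and 1.06 CPM against 6.22, 4.94, 4.59 and 6.25 CPM. Every TTPΔARE library was above every WT library. The log2 fold change was 2.90 (SE 0.53, adjusted p = 0.0201), a fold of 7.48. The average logCPM was 1.502, just over the limit. Leaving out 1 library at a time gave log2 fold changes between 2.58 and 3.24, while the adjusted p rose to 0.0623 without Y-WT replicate 1, to 0.0856 without Y-TTPΔARE replicate 1 and to 0.0554 without Y-TTPΔARE replicate 2. Without Y-TTPΔARE replicate 3 (2.96, adjusted p = 0.0381) or replicate 4 (2.90, adjusted p = 0.0458), with RLE factors (adjusted p = 0.0207), in DESeq2 (adjusted p = 2.62e-06) and with all 24 libraries in the fit (adjusted p = 0.00889) the call was lost through the logCPM limit alone. It was thus lost without any 1 of the 4 Y-TTPΔARE libraries.

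Spi1 and Cebpb had higher values in Y-TTPΔARE MPP3 without passing. Spi1 was at 167, 154, 144 and 226 CPM against 115, 121, 137 and 111 CPM in Y-WT (log2 fold change 0.46, SE 0.12, adjusted p = 0.0932). Cebpb was at 40.6, 34.9, 25.8 and 41.8 CPM against 19.6, 22.45, 26.1 and 23.6 CPM (0.60, SE 0.16, adjusted p = 0.121). The groups stood apart for Spi1 and overlapped by 1 library for Cebpb. DESeq2 called both, and also lower Runx1, the likelihood ratio test called Cebpb, and so did the quasi-likelihood test without Y-TTPΔARE replicate 3 (0.71, adjusted p = 0.0497), the library whose Cebpb level lay within the Y-WT range. With all 24 libraries in the fit 4 members were called, which were Cebpb and Spi1 higher and Gata2 and Runx1 lower.

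Gata2 and Runx1 each had a log2 fold change of -0.38 in Y-TTPΔARE MPP3 that did not pass. Gata2 was at 183, 172, 154 and 152 CPM against 233, 182, 215 and 215 CPM (SE 0.14, adjusted p = 0.308), and Runx1 at 110, 90.4, 98.0 and 95.2 CPM against 121, 118, 136 and 126 CPM (SE 0.12, adjusted p = 0.23). Runx1 did not overlap between genotypes and Gata2 overlapped by 1 library. Gfi1 (0.45, SE 0.15, adjusted p = 0.228), Gfi1b (-0.73, SE 0.31, adjusted p = 0.372), Cebpa (0.46, SE 0.24, adjusted p = 0.489), Cebpe (0.85, SE 0.65, adjusted p = 0.628) and Cebpd (-0.09, SE 0.16, adjusted p = 0.861) did not pass. Of the 9 members over the logCPM limit, Spi1, Gfi1, Klf4 and Runx1 did not overlap, where 12.3% of all genes over that limit did not.

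**Figure D3:**
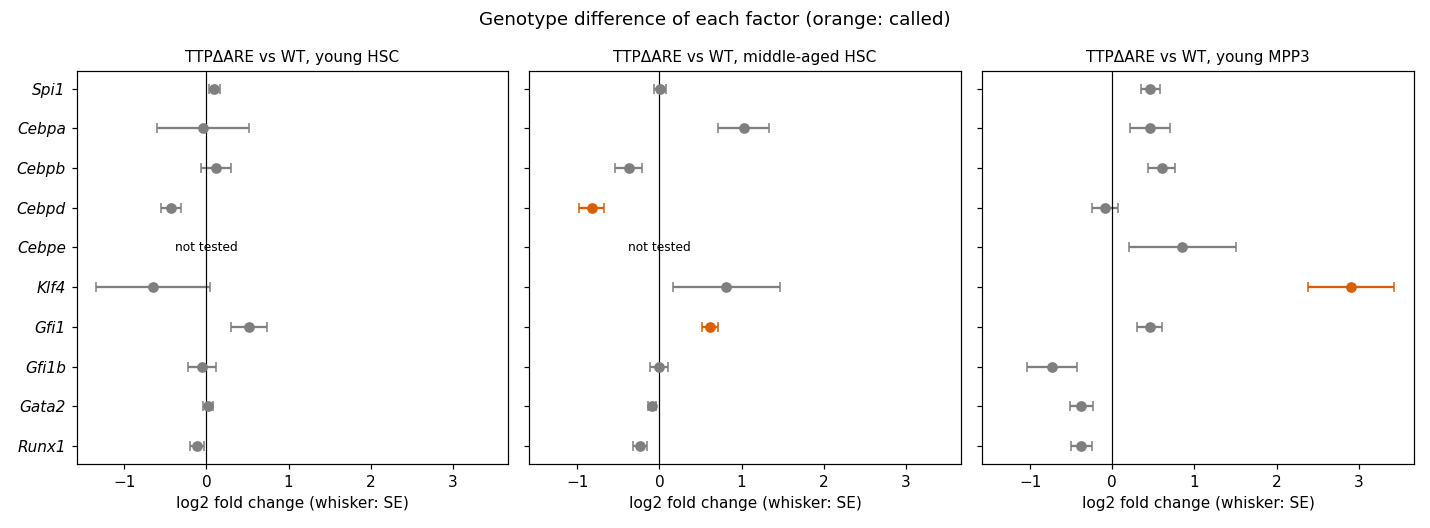
Log2 fold change of TTPΔARE over WT with its SE for each factor in young HSC, middle-aged HSC and young MPP3, orange where called. The called values are Cebpd (-0.82) and Gfi1 (0.61) in middle-aged HSC and Klf4 (2.90) in MPP3, and no value was called in young HSC.

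Of 28 other transcription factors of the myeloid programme, 6 rose in Y-TTPΔARE MPP3 and none fell, where 1.58% of all genes were called higher. This list was chosen with earlier results of these data known, so the count is a description and not a test. Irf8, which drives monocyte and dendritic cell fate, was at 24.0, 24.3, 63.0 and 39.9 CPM in Y-WT and at 443, 233, 354 and 449 CPM in Y-TTPΔARE (log2 fold change 3.25, SE 0.34, adjusted p = 0.000762). Id2, an inhibitor of E proteins, was at 20.8, 10.9, 19.1 and 21.4 CPM against 251, 148, 233 and 501 CPM (3.89, SE 0.34, adjusted p = 0.000332). Klf2, a relative of Klf4, stood at 0.846 to 1.21 CPM against 12.2 to 21.7 CPM (3.92, SE 0.21). None of these 3 overlapped between genotypes. Irf5 (1.118, SE 0.13), Maf (1.22, SE 0.26) and Klf6 (0.77, SE 0.14) were also higher. The effect of genotype differed between MPP3 and HSC, by the interaction term, for Irf8 (2.96, adjusted p = 0.00296), Id2 (2.94, adjusted p = 0.0189), Klf2 (3.77, adjusted p = 0.000496) and Irf5 (0.82, adjusted p = 0.0497).

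**Figure D4:**
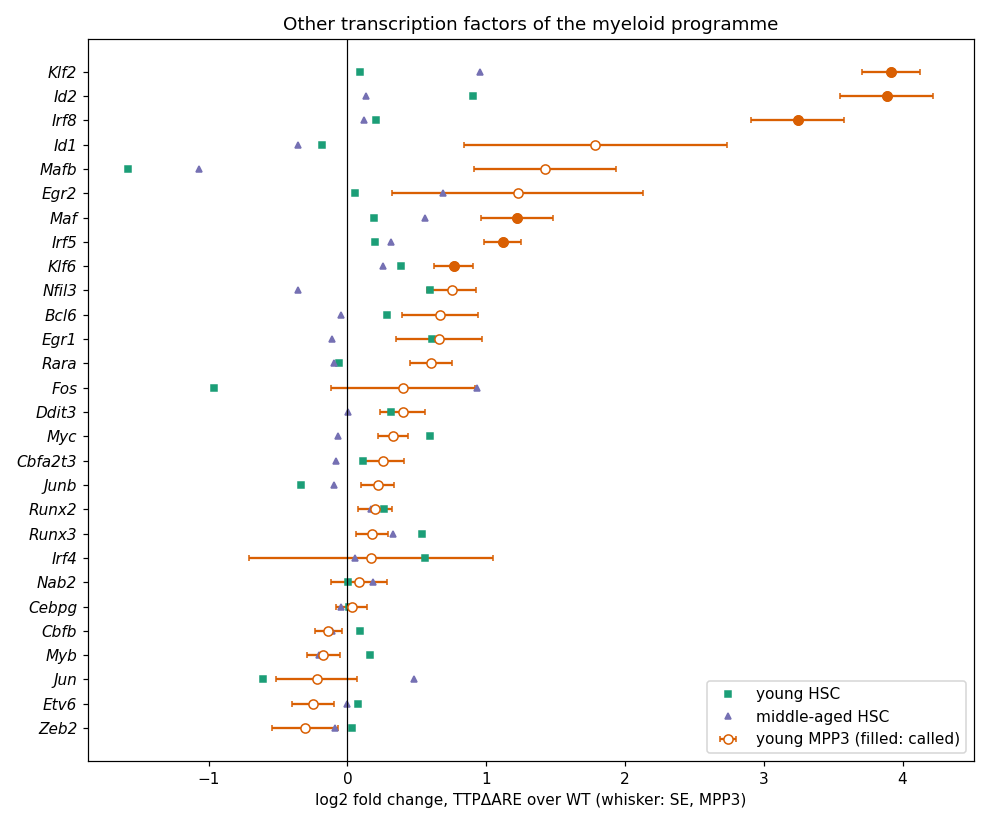
Log2 fold change of TTPΔARE over WT for the 28 other factors, ordered by their value in young MPP3 (circles with SE, filled where called), beside young HSC (squares) and middle-aged HSC (triangles). Klf2, Id2 and Irf8 lie above 3 in MPP3 and under 1 in both HSC sets.

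Of the 25 myeloid effector genes, a list chosen in the same way, 5 were higher in Y-TTPΔARE MPP3 and none lower. They included Elane, neutrophil elastase (log2 fold change 2.53, SE 0.34), and Ly86 (3.59, SE 0.40). The others were Fcgr3, an Fc receptor (1.99, SE 0.24), Csf2ra, a GM-CSF receptor chain (0.85, SE 0.14), and Ltb4r1, a leukotriene receptor (1.32, SE 0.29). None of 11 corepressors and none of 13 stem cell factors was called. Among 19 immediate early genes, which respond to handling as well as to signals, 4 were higher (Btg2, Zfp36, Klf2 and Klf6) and none lower. Of all genes tested, 1.58% were called higher. Zfp36 is the targeted gene, and Klf2 and Klf6 were already counted among the other factors above. Among 18 erythroid and megakaryocyte genes 2 were higher, Hbb-bt and Hbb-bs, and 1 was lower, Itga2b.

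Higher marker levels were not limited to monocytes and macrophages. The summed level of 10 monocyte and macrophage markers was 537 to 875 CPM in Y-WT MPP3 and 1111 to 1940 CPM in Y-TTPΔARE MPP3, highest in replicate 4. Lyz2 was the highest of them, with a mean of 404 CPM in Y-WT and 632 CPM in Y-TTPΔARE. Of the 10 markers, 3 were called higher, which were Ccr2 (4.15, SE 0.24), Adgre1 (2.59, SE 0.32) and Cd68 (1.57, SE 0.15). None was at 0 in all libraries of a group. Of all genes tested, 1.58% were called higher. The median log2 fold change was 1.71 for these markers, 1.99 for erythroid, 1.75 for T and NK cell and 1.37 for B cell markers. It was 1.24 for basophil and mast cell, 0.80 for neutrophil, 0.53 for endothelial and -0.59 for megakaryocyte markers. Basophil and mast cell markers summed to 37.1 to 92.9 against 100 to 318 CPM (2 of 10 called higher), erythroid markers to 15.6 to 34.9 against 61.3 to 187 CPM, T and NK cell markers to 237 to 346 against 275 to 649 CPM, B cell markers to 47.2 to 127 against 69.4 to 167 CPM, and neutrophil markers to 8.69 to 99.1 against 18.1 to 150 CPM. MPP3 and granulocyte-monocyte progenitor markers summed to 1963 to 3485 against 2618 to 4563 CPM (3 of 10 called higher, median log2 fold change 1.43). HSC markers summed to 1062 to 1393 against 969 to 1136 CPM (1 of 10 called lower, median -0.31). The part of these lists in the differences of Klf4, Spi1 and Cebpb was not tested. Megakaryocyte markers summed to 174 to 194 against 114 to 127 CPM (2 of 8 tested called lower) and endothelial markers overlapped (411 to 468 against 372 to 480 CPM).

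In young HSC no member was called in edgeR's test, where 0.0246% of 24381 genes were. The targeted gene Zfp36 did not pass there (adjusted p = 0.238), so the lack of a call does not show that a member was unchanged. Cebpd and Gfi1 alone had an unadjusted p under 0.05, among 9 members tested, where 7.38% of all genes did. DESeq2 and the likelihood ratio test called none either. Cebpd was at 16.3, 13.8, 11.1 and 14.9 CPM in Y-WT and at 10.6, 11.2, 10.4 and 10.6 CPM in Y-TTPΔARE (log2 fold change -0.43, SE 0.12, adjusted p = 0.358), with 1 library of overlap. Gfi1 was at 39.1, 18.7, 24.3 and 31.7 CPM against 52.6, 34.0, 43.7 and 36.6 CPM (0.52, SE 0.22, adjusted p = 0.639), and the groups overlapped. Spi1 in Y-TTPΔARE (72.4 to 80.9 CPM) lay just above Y-WT (66.3 to 71.7 CPM), with a log2 fold change of 0.10 (SE 0.07) and with 8.35% of genes over the logCPM limit not overlapping either. The other members were between -0.65 (Klf4, SE 0.69) and 0.11 (Cebpb, SE 0.18).

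In middle-aged HSC Gfi1 was higher and Cebpd lower in TTPΔARE, 2 of 9 members tested, where 1.41% of 21136 genes were called (0.7% higher and 0.71% lower). Gfi1 was at 26.5, 27.4, 32.8, 29.3 and 27.0 CPM in the 5 M-WT libraries and at 46.4, 39.6 and 49.6 CPM in the 3 of M-TTPΔARE. The log2 fold change was 0.61 (SE 0.09, adjusted p = 0.00968), a fold of 1.53. Cebpd, an acute-phase member of the C/EBP family, was at 18.1, 15.3, 23.7, 17.6 and 16.0 CPM against 10.3, 12.0 and 9.42 CPM. Its log2 fold change was -0.82 (SE 0.15, adjusted p = 0.0231). Neither gene overlapped between genotypes, where 13.8% of genes over the logCPM limit did not. Both calls rest on 3 M-TTPΔARE libraries, and without replicate 1, 2 or 3 the adjusted p was 0.0576, 0.018 or 0.0794 for Gfi1 and 0.0971, 0.0534 or 0.114 for Cebpd. With all 24 libraries in the fit neither was called (adjusted p = 0.201 and 0.0658), and with the replicate number as a block Gfi1 alone was (0.59, adjusted p = 0.048, against -0.89, adjusted p = 0.118, for Cebpd).

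Cebpa was low but higher in every M-TTPΔARE library (2.64, 1.18 and 1.83 CPM) than in the M-WT libraries (0.902, 1.11, 0.684, 0.843 and 0.908 CPM), with 44 to 84 and 26 to 44 counts. The log2 fold change of 1.03 (SE 0.31) did not pass (adjusted p = 0.133). Cebpb (-0.38, SE 0.17, adjusted p = 0.298) and Runx1 (-0.23, SE 0.09, adjusted p = 0.213) had negative values that did not pass. Spi1 (0.01, SE 0.07) and Gfi1b (0.00, SE 0.11) were level.

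Few of the surrounding genes were called in middle-aged HSC, where 1.41% of all genes were. Irf5 was the only 1 of 28 other myeloid factors called higher (0.32, SE 0.06), and Csf3r, the G-CSF receptor, the only 1 of 22 effector genes tested called lower (-0.82, SE 0.12, adjusted p = 0.00838). Among the corepressors Gse1 was lower (-0.33, SE 0.06), among stem cell factors Lmo2 was higher (0.28, SE 0.06), and of the erythroid and megakaryocyte genes Car2 was higher (0.55, SE 0.08) and Itga2b lower (-1.04, SE 0.10). Zfp36 was higher and Socs3 lower (-1.83, SE 0.33) among the 20 immediate early genes. In young HSC the lists of other factors, corepressors, stem cell factors, effectors and immediate early genes (Zfp36 among them) had no call, and Hbb-bt was higher (1.60, SE 0.18). Some sums there stood apart between Y-WT and Y-TTPΔARE. These were erythroid markers (45.6 to 56.8 and 129 to 375 CPM), T and NK cell markers (85.3 to 101 and 124 to 233 CPM) and the other factors (2000 to 2192 and 2275 to 2584 CPM). Neutrophil marker sums were 7.70 to 14.9 CPM in M-WT and 5.42 to 9.81 CPM in M-TTPΔARE, and monocyte sums 432 to 489 and 428 to 453 CPM. Other lists stood apart between the genotypes. Megakaryocyte markers summed to 785 to 865 CPM in M-WT and 483 to 644 in M-TTPΔARE (2 of 8 tested called lower). MPP3 and granulocyte-monocyte progenitor markers summed to 411 to 493 and 314 to 320 CPM (1 of 9 called lower). HSC markers summed to 2352 to 2621 and 2751 to 2942 CPM (1 of 10 called higher). Effector genes were lower in sum in M-TTPΔARE (879 to 976 and 752 to 807 CPM). Stem cell factors (3653 to 3848 and 4050 to 4291 CPM) and erythroid and megakaryocyte genes (3372 to 3967 and 4180 to 4422 CPM) were higher. The part of these lists in the differences of Gfi1 and Cebpd was not tested.

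Age was compared within genotype. In WT, Spi1 was lower and Gata2 and Runx1 were higher in middle-aged HSC, 3 of 9 members tested, where 12.1% of 22280 genes were called (8.38% higher and 3.69% lower). Spi1 was at 52.4, 61.2, 53.0, 57.2 and 59.6 CPM in M-WT against 66.3 to 71.7 in Y-WT (log2 fold change -0.28, SE 0.06, adjusted p = 0.0152). Gata2 was at 448, 461, 434, 462 and 463 CPM against 365 to 387 (0.27, SE 0.05, adjusted p = 0.00437). Runx1 was at 145, 180, 167, 136 and 156 CPM against 117 to 135 (0.34, SE 0.09, adjusted p = 0.0205). The ages did not overlap for these 3 genes, where 21.4% of genes over the logCPM limit did not. In TTPΔARE, Spi1 alone was called (-0.35, SE 0.07, adjusted p = 0.011), where 8.22% of 23336 genes were (3.24% lower), and Gata2 (0.16, SE 0.07, adjusted p = 0.176) and Runx1 (0.23, SE 0.07, adjusted p = 0.0804) did not pass. These 3 genes did not overlap between ages either, where 31.9% of genes did not. Monocyte marker sums were 476 to 723 CPM in Y-WT against 432 to 489 in M-WT, and 577 to 652 in Y-TTPΔARE against 428 to 453 in M-TTPΔARE. Without overlap of the ages, megakaryocyte markers went from 348 to 397 CPM in Y-WT to 785 to 865 in M-WT, HSC markers from 1767 to 2187 to 2352 to 2621 CPM, and T and NK cell markers from 85.3 to 101 to 53.5 to 64.7 CPM. The same 3 lists stood apart in TTPΔARE, at 336 to 392 against 483 to 644, 2052 to 2193 against 2751 to 2942 and 124 to 233 against 54.5 to 74.6 CPM. More lists did so in TTPΔARE alone. Lower with age were MPP3 and granulocyte-monocyte progenitor (386 to 483 against 314 to 320), neutrophil (16.3 to 26.3 against 5.42 to 9.81), monocyte, erythroid, and basophil and mast cell markers. Higher were endothelial markers, stem cell factors (3391 to 3638 against 4050 to 4291), and erythroid and megakaryocyte genes. The part of these lists in the differences of Spi1, Gata2 and Runx1 was not tested. Leaving out a library changed the age calls, with 1 of the 3 WT calls left (Runx1) without M-WT replicate 1 or Y-WT replicate 2 and 1 (Spi1) without Y-WT replicate 4, and none in TTPΔARE without M-TTPΔARE replicate 1 or 2. Gata2 lay so close to the fold limit that its call in WT was lost through it alone in DESeq2, with RLE factors and without M-WT replicate 1, 4 or 5 or Y-WT replicate 2 or 4, with log2 fold changes of 0.25 to 0.30 over the libraries left out in turn. Lists of other genes are set against 12.1% of all genes called in WT and 8.22% in TTPΔARE. Of the 14 stem cell factors, 3 were higher with age in WT and 4 in TTPΔARE, and none was lower. Of 28 other myeloid factors 2 were higher and 3 lower in WT, and 4 higher and 5 lower in TTPΔARE. Of 23 effector genes tested 2 were higher and 2 lower in WT, and 2 higher and 3 lower in TTPΔARE, and of 18 erythroid and megakaryocyte genes 5 and 2 in WT, and 1 and 3 in TTPΔARE. Corepressors gave 2 higher of 11 in WT and 1 lower in TTPΔARE.

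Whether the effect of genotype differed between ages or cell types was tested by an interaction term. The comparisons above share young HSC and MPP3 libraries and are not independent of each other. No member was called for age, where 0.0213% of 28189 genes were, and 1 of 9 had an unadjusted p under 0.05 (Cebpd, -0.44, SE 0.20, adjusted p = 0.319). No member was called for cell type, where 0.429% of 26337 genes were, and 3 of 10 had an unadjusted p under 0.05, which were Klf4 (3.50, SE 0.89, adjusted p = 0.111), Gata2 (-0.50, SE 0.14, adjusted p = 0.165) and Runx1 (-0.37, SE 0.13, adjusted p = 0.29). DESeq2 and the likelihood ratio test called no member in either interaction, and with all 24 libraries in the fit Gata2 was called for cell type. Klf4 could not be called for cell type at any p in the main fit, as its average logCPM of 0.92 lay under the limit. Over the other settings its adjusted p went down to 0.00388. So the calls of Gfi1 and Cebpd in middle-aged HSC alone are not shown to differ from the other sets. For Klf4 in MPP3 alone the lack of a call cannot decide this, and its adjusted p of 0.111 did not pass.

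Across the 24 libraries, the genes with the level most like that of a member were listed by Pearson's r of log2 CPM over genes above the logCPM limit. Libraries of a cell type share most of that likeness. Spi1 was followed most closely by Tmsb10 (r = 0.984), Arrb2 and Selplg (both r = 0.982), Gata2 by Scarf1, Mmrn1 and Nadk2 (each r = 0.984), and Gfi1b by 9230112J17Rik (0.948), Dcbld2 and Treml1 (both 0.938). Cebpa was followed by Ppp1cc (0.946), Gfi1 by Dok2 (0.910), Cebpe by Ms4a3 (0.899), Klf4 by AB124611 (0.895), Runx1 by Ggcx (0.887), Cebpd by Arf2 (0.859) and Cebpb by Oaf (0.8291).

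Cebpa, Cebpb, Cebpd, Gfi1 and Runx1 each overlap a gene on the opposite strand. The strand setting of the counting was not given in the sources used here. Reads from the exon stretch that a pair shares therefore cannot be told apart, and the length of these stretches was not measured. The counts that follow are totals over each whole gene and not those of the shared stretch. Over the 24 libraries Cebpb had 27658 counts and Tmem189 on the other strand 41958, and Cebpd had 12450 and Spidr 39434. The partners of Cebpa (Gm45091), Gfi1 (A430072P03Rik) and Runx1 (Gm26626) had 281, 2362 and 4752 counts against 3993, 35735 and 105096.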

How the data were processed

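Bulk mRNA-seq of 24 libraries was analysed. The deposited values are raw counts per gene symbol, which the authors made by trimming reads with Trim Galore! and Cutadapt, aligning them to mm10 with STAR and counting them with featureCounts on GENCODE M22. Strand and multimapping settings were not given in the sources used here. The paper and the labels name different SMARTer library kits. The paper also counts 1 Y-TTPΔARE MPP3 sample fewer than the 4 used here and does not name the one left out. Sums of counts were 24261371 to 39934554 per library, and no pair of replicates of a group agreed within sampling noise.

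The members, gene lists and the rule for named genes (all 10 members, the genes of each list called between genotypes or in an interaction, at most 6 a list, Zfp36, and the 3 genes most like each member, of which the first is printed for 7) were chosen with earlier results of these data known. edgeR 4.0.16 under R 4.3.3 was run on the libraries of each comparison. Genes were kept by filterByExpr (minimum count 10, minimum total 15), scaled by TMM and compared by the quasi-likelihood F test with Benjamini-Hochberg adjustment over all genes tested. Calls needed an adjusted p under 0.05, a fold over 1.2 and an average logCPM over 1.5. The SE is the log2 fold change divided by the square root of F. CPM levels used TMM over 24 libraries and RPKM the exon lengths of GENCODE M21. The tests were checked on simulated counts with known changes in genes over the logCPM limit. Between genotypes, 1.5-fold changes were recovered in 38% of cases in young HSC, 42% in middle-aged HSC and 10% in MPP3. For 2-fold changes it was 76%, 88% and 56%. The interaction with cell type recovered 0% and 18%, and that with age 8% and 50%. Differences of this size can thus go uncalled. Alternatives were DESeq2 1.42.0, edgeR's likelihood ratio test, RLE factors, no filter, all 24 libraries in the fit, the adjusted p alone, library totals without factors for CPM levels, the replicate number as a block and each library left out. Overlap of groups under the scaling of each comparison was added after seeing the data. Same-numbered libraries were most alike in MPP3 against HSC of Y-TTPΔARE, where the correlation of deviations was 0.142 to 0.233 over 4 pairs. It was 0.0230 to 0.177 in the same comparison of Y-WT and -0.0532 to 0.210 between genotypes in MPP3. Libraries of different number were not compared, so a pairing is not shown. Any such pairing would be read from the data and not from the labels.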

Additional observations from a re-analysis of the deposited data

Results flagged for a closer look

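Of 50 sets of 4 or 5 libraries, each a member's level in a group, 2 held a library far from the others, about as many as chance gives at 1 in 20. In Y-TTPΔARE HSC the level of Cebpd was 11.2 CPM in replicate 2 and 10.4 to 10.6 CPM in the other libraries. In Y-WT MPP3 the level of Cebpe was 1.71 CPM in replicate 3 and 0.462 to 0.674 CPM in the others.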

How the results depend on the processing

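The number of members called moved by over 1.5 times with the setting in 5 of 9 comparisons. In middle-aged HSC, 2 members were called, 0 with all 24 libraries in the fit, 1 with the replicate block and 0 to 2 without 1 library. In MPP3 it was 1 (TTPΔARE against WT), 3 in DESeq2, 2 in the likelihood ratio test, 0 with RLE factors, 4 with all 24 libraries and 0 to 1 without 1 library. For age in WT it was 3, 0 in the likelihood ratio test, 1 with the block and 1 to 4 without 1 library. For age in TTPΔARE it was 1, 0 with all 24 libraries, 0 with the block and 0 to 2 without 1 library. For the interaction of cell type it was 0 and 1 with all 24 libraries. The cause was not tested. A pairing by replicate number was not shown for these comparisons. Where same-numbered libraries were most alike (MPP3 against HSC of Y-TTPΔARE), the replicate block left 7 called as before. Smaller moves were seen between MPP3 and HSC. In TTPΔARE, 7 became 8 by the adjusted p alone and in DESeq2, 6 without a filter and with all 24 libraries, and 5 to 6 without 1 library. In WT, 5 became 6 in DESeq2, the likelihood ratio test, with RLE factors and without a filter, and 4 to 6 without 1 library.

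Directions that turned were of values smaller than their SE that were not called. Most lay near 0, but Klf4 was at -0.32 (SE 0.77) in MPP3 against HSC of WT and at 0.21 (SE 0.69) for age in TTPΔARE. Without a filter these were Cebpa (0.0148) and Gfi1b (0.0231) in young HSC and Gfi1b for age by genotype (-0.0370). For Gfi1b in middle-aged HSC the value was 0.00456 in DESeq2, 0.00450 with RLE factors, 0.0433 with all 24 libraries and 0.0972 with the block. With all 24 libraries, Runx1 in MPP3 against HSC of WT was 0.0241 and Cebpb in the same comparison of TTPΔARE 0.0235. Gfi1 for age in WT was -0.0188 in DESeq2 and -0.0187 with RLE factors. Leaving out a library gave -0.29 to 0.36 for Cebpa and -0.11 to 0.14 for Gfi1b in young HSC, -0.0257 to 0.0369 for Spi1 and -0.0871 to 0.0524 for Gfi1b in middle-aged HSC, and -0.19 to 0.00366 for Cebpd in MPP3. Between MPP3 and HSC it gave -0.0416 to 0.0513 for Runx1 and -0.65 to 0.10 for Klf4 in WT and -0.21 to 0.0379 for Cebpb in TTPΔARE. For age it gave -0.16 to 0.22 for Gfi1 and -0.40 to 0.21 for Cebpa in WT, and -0.10 to 0.0629 for Cebpd, -0.17 to 0.83 for Klf4 and -0.25 to 0.0178 for Cebpb in TTPΔARE. For the interactions it gave -0.22 to 0.24 for Gfi1 and -0.17 to 0.0821 for Gfi1b (age) and -0.28 to 0.0589 for Gfi1 (cell type).

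Under the scaling of each comparison alone, Cebpd in place of Spi1 did not overlap in young HSC (5.49% of genes), and in MPP3 Cebpb and Gata2 stood apart and Gfi1 overlapped (11.5% of genes). For age in WT Runx1 overlapped (21.2% of genes), and between MPP3 and HSC of TTPΔARE Runx1 stood apart (34.4% of genes). Cebpe and Klf4 in HSC, at 0 to 50 counts a library, were too low for small differences to be detectable.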
